A study of Mus musculus with 3 samples.

Results

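The transcripts described here are those of nucleolar and ribosome biogenesis factors: box C/D and H/ACA snoRNP proteins, processome and subunit assembly factors, and exosome subunits. They were chosen by symbol from 2 deposited tables of RNA that came down with Mettl3 or with Zfp217 in CCE mouse embryonic stem cells. A transcript was taken when its class in the table was protein-coding and its symbol began with Nop or Nol and a digit, with Utp, Rrp, Exosc or Gnl, or was that of Nolc1, Rrs1, Nhp2, Ebna1bp2, Bop1, Pes1, Ncl, Npm1, Fbl, Dkc1, Gar1, Imp3 or Imp4, and Nhp2l1 was taken whatever its class. This gave 26 transcripts of 18 genes, among 13595 transcripts listed in either table, of which 8672 were protein-coding. The Mettl3 table held 16 of them, from 13 genes, and the Zfp217 table held 21, from 16 genes.

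The study sequenced 3 libraries from nuclei of untreated CCE cells, a feeder-free line grown with serum and LIF: 1 from RNA immunoprecipitated (RIP) with a Mettl3 antibody, 1 from a Zfp217 RIP, and 1 from the input, the nuclear lysate RNA before immunoprecipitation. It asked which RNAs associate with each protein. Mettl3 carries the catalytic activity that places m6A, a methyl group on adenosines of mRNA. Zfp217 has zinc fingers, and the series' title ties it to m6A. A control antibody against neither protein was not analysed here. With 1 library of each kind there is no spread between replicates and no p-value, and every difference below is a difference between libraries.

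Levels are FPKM, which divide the fragments of a transcript by its length and by the library's mapped fragments. Depth was estimated from the values of short RNAs as 9260000 fragments for the Mettl3 RIP, 6610000 for the Zfp217 RIP and 5455000 for the input. From these, reads were estimated for each transcript, and a ratio of RIP to input is given with its 95% exact binomial interval, which covers counting error only. No RIP value in either table was under 1 FPKM, and no ratio was under 1.5, so a transcript that is not listed may be absent, weakly expressed or not above the input. The direction of every listed ratio is therefore set by the tables and is not a finding. Of 10 embryonic stem cell marker genes, 6 were listed in each table (Esrrb, Fgf4, Klf4, Nanog, Pou5f1 and Sox2), and of 8 fibroblast markers 1 was listed, Vim.

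Ribosomes are built in the nucleolus, where RNA polymerase I makes a long precursor of the ribosomal RNAs. Small nucleolar RNAs (snoRNAs) guide its modification within protein complexes called snoRNPs: box C/D snoRNPs methylate ribose and H/ACA snoRNPs make pseudouridine. The small-subunit processome folds and cuts the precursor of the small ribosomal subunit, other factors assemble the large subunit, and the RNA exosome trims RNA from the 3′ end. Fast-dividing cells such as embryonic stem cells need many new ribosomes, and the mRNAs of these factors are abundant in them. Many of these genes carry snoRNAs in their introns.

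Among members with an input of at least 0.01 FPKM, the highest ratio in both RIPs belonged to a short transcript of Nhp2l1, now named Snu13, a protein that binds the core of box C/D snoRNAs and the U4 spliceosomal RNA. The gene lies at chr15:82040525-82047598 on the minus strand (GRCm38, GENCODE M21, as for every coordinate given here). The transcript, ENSMUST00000072904, is 769 bases long, is classed as a processed transcript and has 2 exons. It skips the middle exon of the full-length coding transcript, ENSMUST00000080622, which has 3 exons and was listed in neither table. The second exon of ENSMUST00000072904 also lies inside the last exon of the coding transcript. It begins at 82042197 rather than 82042368 and ends earlier. The joins are shown because they are what tells the listed transcript from the coding one: 12 bases lie on each side, read 5′ to 3′ along the transcript, with the downstream exon in capitals.
ENSMUST00000072904, its only junction: accgcagccatgTCATCGCCTGTT
ENSMUST00000080622, first junction: accgcagccatgACAGAGGCTGAT
ENSMUST00000080622, second junction: gagccaatgaagCCACCAAAACCC
The upstream exon of the first pair ends at the same base, 82047487. The listed transcript then continues at 82042197 and the coding one at 82044017. The skipping junction occurred in 1 annotated transcript of any gene, and the first coding junction in 3. No base of the listed transcript is its own, so only reads over that junction belong to it alone, and 92 of its bases (11.96%) are coding in other transcripts of the gene.

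For this Nhp2l1 transcript the input held 1.30 FPKM and the Mettl3 RIP 29.6 FPKM, and in the Zfp217 table the input held 1.32 FPKM and the RIP 19.8 FPKM. Both RIP values of this transcript stood far above its input values. The ratio was 22.7 (9.17 to 76.4) for Mettl3 and 15.1 (5.98 to 50.9) for Zfp217. The input values rest on an estimated 4.52 and 4.57 reads, which is what makes the intervals wide, against 174 reads in the Mettl3 RIP and 83.4 in the Zfp217 RIP. No base of this transcript is its own. How reads were divided among transcripts of the gene therefore touches both ratios, and that part was not tested. Of the 50-base stretches of this transcript, 5.69% also occur in transcripts of other genes. A second Nhp2l1 transcript, ENSMUST00000166578, was listed for Zfp217 at 1.67 FPKM with an input of 0, from an estimated 10.2 reads. The table called it protein-coding, whereas GENCODE M21 calls it a retained intron.

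**Figure D1:**
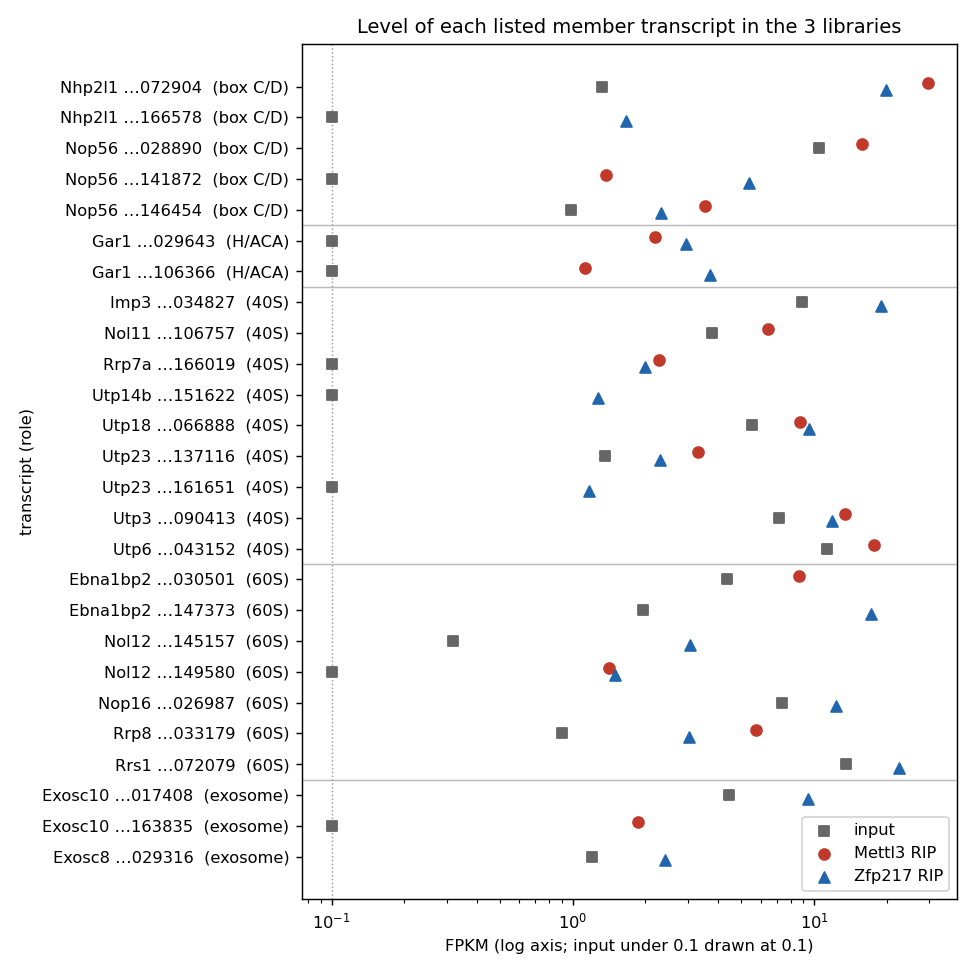
Level in FPKM (log axis, with input values under 0.1 drawn at 0.1) of each of the 26 transcripts in the input (squares), the Mettl3 RIP (circles) and the Zfp217 RIP (triangles), grouped by role. A RIP point is drawn only where that table lists the transcript. The Nhp2l1 transcript has the highest level in the Mettl3 RIP, at 29.6 FPKM, and Rrs1 in the Zfp217 RIP, at 22.6 FPKM.

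Nop56, at chr2:130274430-130279313 on the plus strand, encodes a scaffold protein of the box C/D snoRNP and hosts 5 annotated snoRNA genes. Its full-length coding transcript has 12 exons and was listed in neither table. The listed protein-coding transcripts were 3 partial ones. The first, ENSMUST00000028890, covers the 3′ part of the gene and was listed for Mettl3 alone, with 10.4 FPKM in the input, 15.8 FPKM in the RIP and a ratio of 1.52 (1.07 to 2.18). Of its 50-base stretches, 80.7% also occur in transcripts of other genes, so its level is uncertain. Its exons also hold the snoRNA gene Gm23187.

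A longer 3′ transcript of Nop56, ENSMUST00000146454, was listed in both tables. Its values were 0.975 FPKM in the input and 3.55 FPKM in the Mettl3 RIP, a ratio of 3.64 (1.64 to 9.41). Against Zfp217 they were 0.986 and 2.33 FPKM, a ratio of 2.36 (0.978 to 6.45), whose interval reaches below 1. Other genes share 50.5% of the stretches of this transcript. No base of it or of ENSMUST00000028890 is its own. The 5′ transcript of Nop56, ENSMUST00000141872, shares none and was listed at 0 in the input, 1.37 FPKM in the Mettl3 RIP and 5.40 FPKM in the Zfp217 RIP. Those RIP values rest on an estimated 4.88 and 13.7 reads, and 3 reads in the input would have been 1.43 FPKM, so an input of 0 is a weak limit here. One snoRNA within Nop56 was itself listed, under the symbol SNORA51. It had 183 FPKM in the input and 381 FPKM in the Mettl3 RIP, and 185 and 347 FPKM in the Zfp217 table. At 133 bases it is about as long as the mean fragment estimated here, 134 bases, so its level is uncertain. The other box C/D core proteins, the methyltransferase Fbl and the Nop56 partner Nop58, had no protein-coding transcript in either table.

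**Figure D2:**
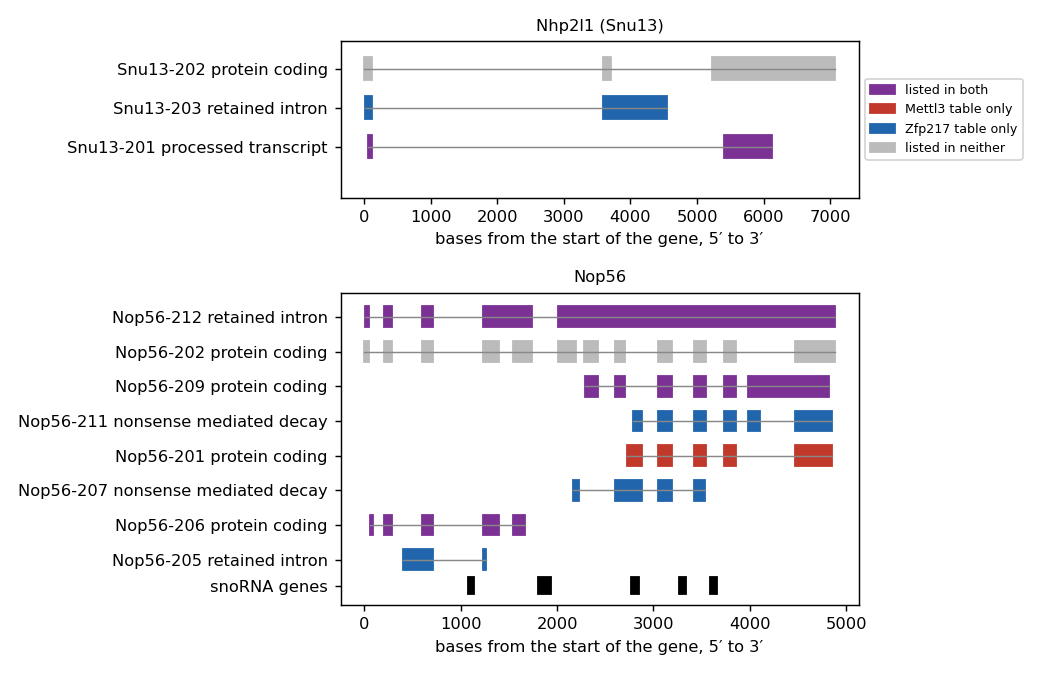
Exons (boxes) of transcripts of Nhp2l1 and Nop56 in GENCODE M21 against the distance in bases from the start of the gene, coloured by the table that lists each one, with the snoRNA genes within Nop56 in black. The full-length coding transcript of each gene, in grey, is listed in neither table, and the listed ones cover parts of the genes or keep introns.

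Of the 4 H/ACA core proteins, Gar1 alone had protein-coding transcripts listed, 2 of them. Gar1 lies at chr3:129824912-129831396 on the minus strand. ENSMUST00000029643 was listed at 0 in the input, 2.20 FPKM in the Mettl3 RIP and 2.94 FPKM in the Zfp217 RIP, from an estimated 23.2 and 22.1 reads. Here 3 input reads would have been 0.483 FPKM, well under both RIP values. Only 3.15% of the bases of this transcript are its own. How reads were divided among transcripts of the gene therefore touches its values, the input of 0 included, and that part was not tested. ENSMUST00000106366, which GENCODE M21 does not hold, was at or near 0 in the input, at 1.12 FPKM in the Mettl3 RIP and at 3.70 FPKM in the Zfp217 RIP. The pseudouridine synthase Dkc1 and its partners Nhp2 and Nop10 had no protein-coding transcript in either table.

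Small-subunit factors made up 9 transcripts of 8 genes, of 22 such genes annotated. Utp3, a processome protein, has 1 annotated transcript, so its reads are not divided among isoforms in this annotation. Its input was 7.09 FPKM and its Mettl3 RIP 13.4 FPKM, a ratio of 1.89 (1.399 to 2.58). For Zfp217 the input was 7.17 FPKM and the RIP 11.9 FPKM, a ratio of 1.66 (1.20 to 2.31). Both intervals stayed above 1. They share the input, so the antibodies are compared by their RIP levels. For Utp3 the ratio of the Mettl3 to the Zfp217 RIP level was 1.13 (0.891 to 1.43). Utp18, a WD-repeat processome protein, had 5.45 FPKM in the input and 8.72 FPKM in the Mettl3 RIP, a ratio of 1.60 (1.22 to 2.12). Against Zfp217 it had 5.51 and 9.57 FPKM, a ratio of 1.74 (1.31 to 2.32). For Utp18 the ratio of the RIP levels was 0.911 (0.736 to 1.13), so both of these intervals held 1. No base of the Utp18 transcript is its own.

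Utp6, another processome protein, was listed for Mettl3 only, with 11.3 FPKM in the input, 17.8 FPKM in the RIP and a ratio of 1.57 (1.35 to 1.84). It was the most deeply covered member in the Mettl3 table, with an estimated 616 RIP reads and 231 input reads. Nol11 is a processome protein also needed for transcription of ribosomal DNA. It was listed for Mettl3 only, at 3.78 and 6.42 FPKM, a ratio of 1.70 (1.26 to 2.31). No base of the listed Nol11 transcript is its own. Imp3, a protein of the U3 snoRNP, was listed for Zfp217 only, at 8.90 FPKM in the input and 19.0 FPKM in the RIP, a ratio of 2.13 (1.46 to 3.18). Being listed in 1 table only does not show a difference between the antibodies, since the other RIP may lie just under the limit of 1.5-fold.

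Utp23, a processome protein related to nucleases, had 1.35 FPKM in the input and 3.31 FPKM in the Mettl3 RIP for ENSMUST00000137116, a ratio of 2.46 (1.503 to 4.19). The same transcript had, in the Zfp217 table, 1.36 and 2.29 FPKM, a ratio of 1.68 (0.971 to 2.99). The interval of the Zfp217 ratio reached below 1. A shorter Utp23 transcript was listed for Zfp217 at 1.16 FPKM with an input near 0. Rrp7a was listed at 0 in the input, 2.27 FPKM in the Mettl3 RIP and 2.00 FPKM in the Zfp217 RIP, and 30.0% of its stretches are shared with Gm3436. Those RIP values rest on an estimated 7.55 and 4.73 reads. As 3 reads in the input would have been 1.53 FPKM, an input of 0 is a weak limit for Rrp7a too. Utp14b, a retroposed copy of Utp14a known for its role in spermatogenesis, was listed for Zfp217 at 1.28 FPKM with an input of 0, from an estimated 30.0 reads.

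Large-subunit factors made up 7 transcripts of 5 genes, of 17 annotated. Rrp8, a nucleolar methyltransferase, lies at chr7:105731730-105737385 on the minus strand. Its input was 0.891 FPKM and its Mettl3 RIP 5.74 FPKM, a ratio of 6.44 (3.73 to 11.99). For Zfp217 the input was 0.901 FPKM and the RIP 3.03 FPKM, a ratio of 3.37 (1.87 to 6.48). Rrp8 was thus well above the input with both antibodies, and the Mettl3 RIP was the higher of the RIP libraries.

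Ebna1bp2, an assembly factor of the large subunit, was listed by a different transcript in each table. The 2960-base ENSMUST00000030501 had 4.36 FPKM in the input and 8.64 FPKM in the Mettl3 RIP, a ratio of 1.98 (1.502 to 2.64). The 602-base ENSMUST00000147373 had 1.95 FPKM in the input and 17.3 FPKM in the Zfp217 RIP, a ratio of 8.85 (3.56 to 28.4). No base of the shorter one is its own, and its input rests on an estimated 4.995 reads. How reads were divided among transcripts of 1 gene therefore touches this ratio, and its part was not tested.

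Rrs1, which helps to bring the 5S RNA into the large subunit, is a gene of 1 exon and 1 annotated transcript. It was listed for Zfp217 only, with 13.5 FPKM in the input, the highest input of any member, and 22.6 FPKM in the RIP, a ratio of 1.67 (1.36 to 2.06). Nop16 was likewise listed for Zfp217 only, at 7.38 and 12.3 FPKM, a ratio of 1.67 (1.23 to 2.28). Nol12, an RNA-binding nucleolar protein, had a ratio of 9.56 in the Zfp217 table for ENSMUST00000145157, from 0.320 to 3.06 FPKM. With under 1 estimated input read (0.954), its interval ran from 1.35 to 478. A second Nol12 transcript was listed at 0 in the input, 1.42 FPKM in the Mettl3 RIP and 1.49 FPKM in the Zfp217 RIP.

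Exosome subunits made up 3 transcripts of 2 genes, of 10 annotated. Exosc10 is the nuclear catalytic subunit, a 3′ exonuclease. Its 2790-base transcript had 4.43 FPKM in the input and 9.47 FPKM in the Zfp217 RIP, a ratio of 2.14 (1.59 to 2.90). This transcript was not listed for Mettl3, and only 2 of its bases are its own. How reads were divided among transcripts of the gene therefore touches this ratio, and its part was not tested. Another Exosc10 transcript was listed for Mettl3 at 1.86 FPKM with an input of 0. Exosc8, a subunit of the exosome ring, was listed for Zfp217 only, at 1.20 and 2.41 FPKM, a ratio of 2.00 (0.824 to 5.41). Nucleolin (Ncl), nucleophosmin (Npm1) and Nolc1, abundant nucleolar proteins of several functions, had no protein-coding transcript in either table, and neither had Bop1 and Pes1, which work together in large-subunit assembly.

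**Figure D3:**
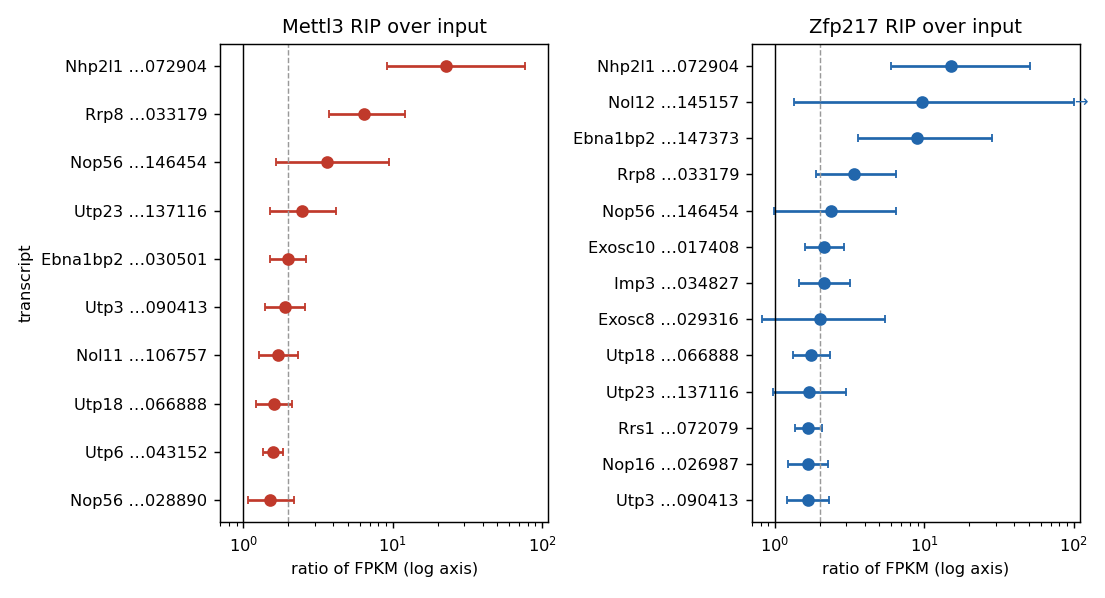
Ratio of RIP to input FPKM (log axis) for the 10 transcripts of the Mettl3 table and the 13 of the Zfp217 table with an input of at least 0.01 FPKM and an annotated length, with 95% counting intervals as bars. The solid line marks a ratio of 1 and the dashed line 2. The interval lies above 1 for all 10 in the Mettl3 table and for 10 of 13 in the Zfp217 table. Of all protein-coding transcripts with an interval, it does so for 87.6% (3596 of 4105) and 76.2% (2148 of 2819). The arrow marks an upper bound of 478 for Nol12.

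The members were then set beside all protein-coding transcripts. Ratios were compared as log2((RIP + 1)/(input + 1)), and transcripts with a mean of RIP and input of at least 1 FPKM were kept. For Mettl3, 12 member transcripts were kept and 5 were at least 2-fold higher than the input on this scale: Nhp2l1, Rrp8, Rrp7a, Gar1 and the longer 3′ transcript of Nop56. Of all kept protein-coding transcripts, 48.4% passed (2399 of 4954). The median log2 ratio was 0.86 for the members and 0.98 for all. For Zfp217, 16 were kept and 8 passed: Nhp2l1, the 5′ transcript of Nop56, both Gar1 transcripts, Ebna1bp2, Nol12, Rrp8 and Imp3. Here 45.2% of all passed (1648 of 3646), and the medians were 0.98 and 0.91. A kept transcript with an input at or near 0 has to pass this rule, which holds for 2 of the 5 and for 3 of the 8. The processed transcript of Nhp2l1 is not among the protein-coding transcripts compared with, and without it the counts were 4 of 11 and 7 of 15.

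Transcripts with input and RIP both at least 1 FPKM were also compared by plain ratio. It was at least 2 in 2 of 8 members of the Mettl3 table and in 54.6% of all protein-coding transcripts (1693 of 3100). The median ratios were 1.79 and 2.07. For Zfp217 the plain ratio was at least 2 in 5 of 10 members and in 39.2% of all (777 of 1980), and both medians were 1.87. Both member counts include the Nhp2l1 processed transcript, which is not among the protein-coding transcripts compared with. Short transcripts can pass this limit on few input reads. In the Zfp217 table these were an estimated 4.57 for Nhp2l1, 4.995 for Ebna1bp2 and 7.66 for Exosc8. The median level in the Mettl3 RIP was 4.64 FPKM for listed members and 3.21 FPKM for all listed protein-coding transcripts, and in the Zfp217 RIP 3.06 and 2.63 FPKM.

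**Figure D4:**
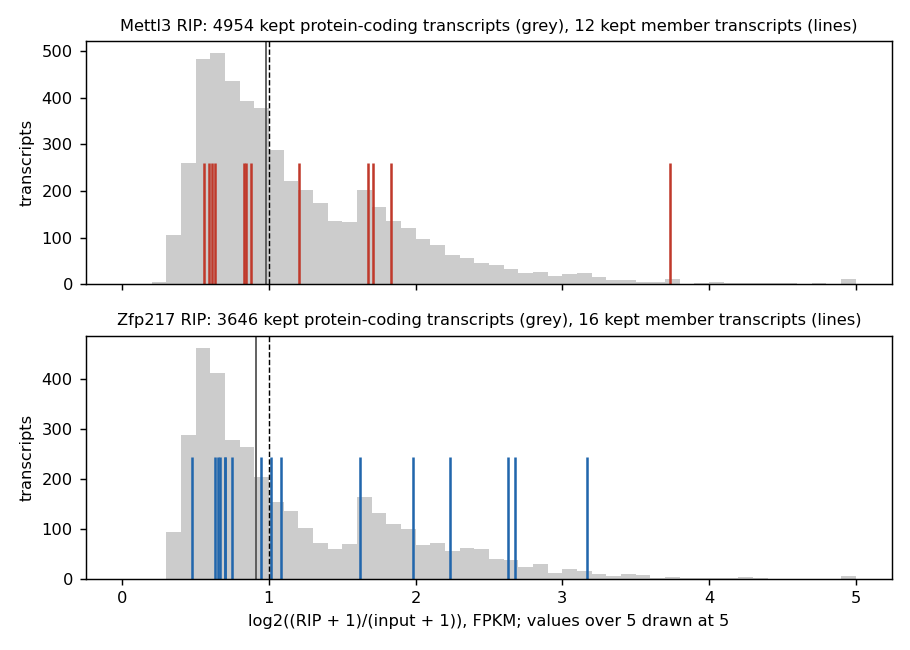
Number of kept protein-coding transcripts (grey bars) by log2((RIP + 1)/(input + 1)), with the kept member transcripts as coloured lines, for the Mettl3 RIP (top, 12 members of 4954) and the Zfp217 RIP (bottom, 16 members of 3646). The solid line marks the median of all, 0.98 and 0.91, and the dashed line a 2-fold difference. Most members lie in the bulk of the bars, and Nhp2l1 lies furthest right in both.

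Being listed at all was counted over genes. GENCODE M21 holds 64 protein-coding genes that fit the rule. Of these, 13 (20.3%) had a protein-coding transcript in the Mettl3 table, where 23.6% of all 21951 protein-coding genes did. For Zfp217, 16 (25%) had one, where 19.1% of all did. These counts go by gene identifier or symbol: they include Nol4l, listed for Mettl3 under an older symbol, and leave out the processed transcript of Nhp2l1. With rows of every class the order turned for Mettl3: 39.1% of the 64 were listed there and 27.9% of all, and for Zfp217 40.6% and 23.9%. In all, 45 of the 64 had no protein-coding transcript in either table. That count was not made over all genes, so it does not set the members apart.

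Both tables listed 11 of the transcripts, which is 68.8% of the members of the Mettl3 table and 52.4% of those of the Zfp217 table. For all protein-coding transcripts these shares were 43.9% and 55.4%. The ratios have their input in common, which ties them to each other, and the shares are a description. Of 7 members kept in both tables, 3 were at least 2-fold higher in both: Nhp2l1, Rrp8 and the Gar1 transcript ENSMUST00000029643. Over all protein-coding transcripts kept in both, 36.4% were (745 of 2045), and without the Nhp2l1 processed transcript 2 of 6 members were.

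Between the antibodies, the shared input cancels, and the members split in both directions. The median difference, Mettl3 minus Zfp217 log2 ratio, was 0.13 over the 11 transcripts and 0.08 over all protein-coding transcripts in both tables. Without the Nhp2l1 processed transcript it was 0.04, below that of all. Rrp8 was at least 1.5-fold higher with Mettl3, with a difference of 0.75, and 15.9% of all were (446 of 2813). Its RIP levels of 5.74 and 3.03 FPKM give a ratio of 1.89 (1.39 to 2.60). The Nhp2l1 processed transcript followed, with a difference of 0.56 and a ratio of RIP levels of 1.49 (1.14 to 1.96). Next came the Nop56 transcript ENSMUST00000146454 at 0.46 and Utp23 at 0.40, whose ratios of 1.52 (0.887 to 2.70) and 1.45 (0.989 to 2.14) had intervals that reached below 1.

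In the other direction, the 5′ transcript of Nop56 and the Gar1 transcript ENSMUST00000106366 were at least 1.5-fold higher with Zfp217, with differences of -1.43 and -1.15, and 9.24% of all were (260 of 2813). For the Nop56 transcript the ratio of the Mettl3 to the Zfp217 RIP level was 0.254 (0.0703 to 0.755). The Gar1 transcript has no annotated length and no interval. Its partner ENSMUST00000029643, at -0.30, had a ratio of 0.748 (0.399 to 1.404), and Utp18, at -0.11, one of 0.911 (0.736 to 1.13). So different transcripts of Nop56 lay on opposite sides, and no direction is given for the gene.

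**Figure D5:**
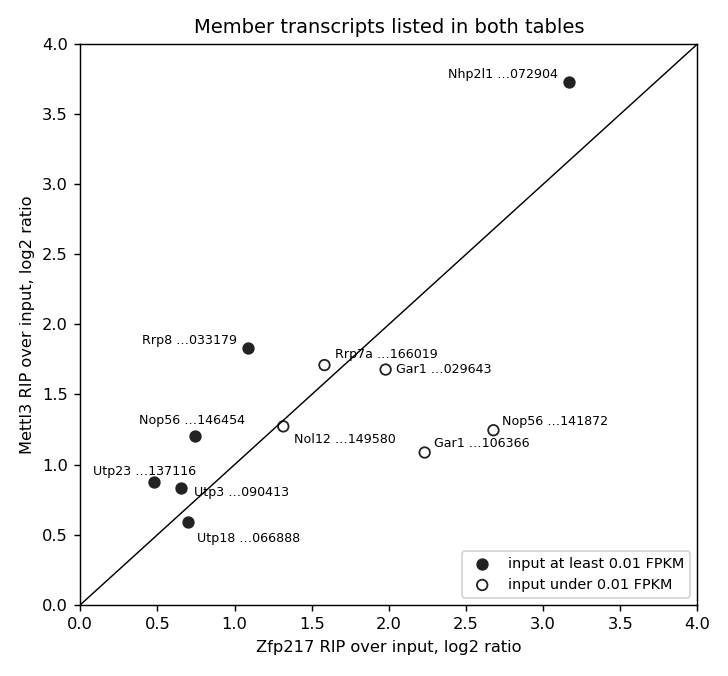
Log2 ratio over input in the Mettl3 RIP against that in the Zfp217 RIP for the 11 transcripts listed in both tables, with open circles where the input was under 0.01 FPKM. The line marks equal ratios. Nhp2l1 and Rrp8 lie above it, and the 5′ transcript of Nop56 and the Gar1 transcript ENSMUST00000106366 lie furthest below.

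For some member genes the transcript with the longest coding sequence was not listed. Counted over genes with a listed transcript that is coding in GENCODE M21, which leaves out Nhp2l1, it was listed for 6 of 10 member genes in the Mettl3 table and for 71.8% of 4723 protein-coding genes. For Zfp217 it was listed for 9 of 15 and for 66.2% of 3759. The median length of member transcripts of class protein-coding was 2121 bases against 3159 for all in the Mettl3 table, and 1395 against 2394 in the Zfp217 table.

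GGACT is a form of the sequence that the m6A enzyme is known to prefer, with the methyl group on its A. The letters were searched for on the sense strand of each transcript. For Mettl3, 10 of 12 matched protein-coding member transcripts held it (83.3%), and 88.7% of 5593 protein-coding transcripts did. For Zfp217 the shares were 14 of 18 (77.8%) and 84.4% of 4428. Per kilobase, members held 1.01 against 1.02 in the Mettl3 table and 1.16 against 1.10 in the Zfp217 table. Over all members the distinct sites numbered 26 in coding sequence, 16 in 3′ UTRs, 1 in a 5′ UTR and 1 in a noncoding transcript. The Nhp2l1 processed transcript, which these counts leave out because its class is not protein-coding, held none.

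The sites of Utp3, Imp3 and Rrs1 are shown because each of these genes has 1 exon and 1 annotated transcript, so that no other isoform takes part in the level. Other genes share 7.31% of the 50-base stretches of Imp3, 6.30% of those of Rrs1 and none of those of Utp3. Utp3 was listed for both antibodies and the others for Zfp217 only. Each window is read 5′ to 3′ on the plus strand of GRCm38, and the capitals mark the motif.
Utp3, coding, chr5:88554720-88554744: cctctccaggGGACTccagctacta
Utp3, coding, chr5:88555008-88555032: attacgatacGGACTatggttccaa
Utp3, coding, chr5:88555831-88555855: taaaaataggGGACTtacacccagg
Imp3, coding, chr9:56937544-56937568: tgaaacaggtGGACTtcctaaactg
Imp3, coding, chr9:56937961-56937985: gcagcatggaGGACTttgtcacctg
Imp3, coding, chr9:56937979-56938003: tcacctgggtGGACTcatccaagat
Imp3, 3′ UTR, chr9:56938144-56938168: cctagaatttGGACTgacaattaag
Rrs1, coding, chr1:9546034-9546058: ttcgccaagaGGACTcaggccaaga
Rrs1, coding, chr1:9546290-9546314: ccctctttggGGACTtcgcagccga
Rrs1, 3′ UTR, chr1:9546645-9546669: tgaaaagctgGGACTgtactaaaag
These are matches of letters in the annotated transcripts. The tables give 1 value per transcript, so they do not show where along an RNA an antibody's reads lay.

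Other genes of the pathway, 126 in lists of RNA polymerase I, further subunit assembly factors, snoRNP assembly, exosome cofactors and RNase MRP, gave 41 kept protein-coding transcripts in the Mettl3 table, of which 22 were at least 2-fold higher, and 36 in the Zfp217 table, of which 18 were, beside the 48.4% and 45.2% over all kept protein-coding transcripts. Ubtf, the factor that opens ribosomal DNA to RNA polymerase I, had 4.67 FPKM in the input and 10.5 FPKM in the Mettl3 RIP, a ratio of 2.25 (1.83 to 2.79), and 4.72 and 15.6 FPKM in the Zfp217 table, a ratio of 3.29 (2.69 to 4.07). Twistnb, a subunit of RNA polymerase I, had a ratio of 3.23 (2.63 to 4.01) for Mettl3 and 1.66 (1.31 to 2.10) for Zfp217. Naf1, an assembly factor of H/ACA snoRNPs, had 4.74 FPKM in the input and 14.6 FPKM in the Mettl3 RIP, with no annotated length and so no interval. Lower ratios in these lists included 1.66 (1.38 to 2.00) for Pno1 and 1.60 (1.18 to 2.20) for Ccdc86 with Mettl3. With Zfp217 they included 1.54 (1.22 to 1.95) for Brix1. By list, 8 of 15 kept transcripts of further large-subunit factors passed for Mettl3 and 8 of 12 for Zfp217. For exosome cofactors the counts were 6 of 9 and 1 of 6, and for RNase MRP 0 of 2 and 0 of 4.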

How the data were processed

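The authors deposited 1 table per antibody with FPKM of input and RIP for each Ensembl transcript and their log2 fold change of RIP over input, which differed from the log2 ratio of the FPKM values by at most 0.00466. The submitters' processing notes name TopHat2 2.0.8 with Bowtie2, Cuffdiff and Cufflinks, CASAVA 1.4, and the mouse build mm9. How each was used is not given in the sources used here. Input values differed between the tables by a median factor of 0.989, so each ratio was taken within its table.

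The input group came from its sample title, and the RIP groups from the antibody named in the sample records. Members and lists were chosen with earlier results of these data known, and Mpp6 was dropped from the exosome cofactors after its values were seen. Named with all values were the core snoRNP proteins, Ncl, Npm1, Bop1, Pes1, the extremes of each table and of the difference between antibodies, with other members as examples. No test was run with 1 library per group. The pseudocount was 1 FPKM and the filter a mean of 1 FPKM. Reads came from a fragment length model (mean 134, SD 30 bases) fitted so that short RNAs of 130 to 400 bases had whole read numbers within 0.05: 48 of 64 values in the Mettl3 RIP, 49 of 62 in the Zfp217 RIP and 9 of 9 and 9 of 10 in the input. PCR copies cannot be told apart, and no interval covers the division of reads among transcripts. GENCODE M21 on GRCm38, which is not the authors' build, matched 88.3% and 88.8% of transcripts and gave lengths, coordinates and sequences. Python 3.11.15, pandas 2.3.3 and scipy 1.17.1 were used.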

Additional observations from a re-analysis of the deposited data

Results flagged for a closer look

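Rows of member genes that the tables class as other than protein-coding lie outside the comparisons above, and those with a ratio of at least 2 and a counting interval above 1 are given here. A retained-intron transcript of Rrp1b, ENSMUST00000147076, had 0.973 FPKM in the input and 11.8 FPKM in the Mettl3 RIP, a ratio of 12.1 (7.97 to 19.2), and 0.986 and 8.80 FPKM in the Zfp217 table, a ratio of 8.93 (5.84 to 14.3). Rrp1b encodes a nucleolar protein of large-subunit assembly, lies at chr17:32036100-32062865, and had no protein-coding transcript in either table. A retained-intron transcript of Nop56, ENSMUST00000150745, spans nearly the whole gene with its later introns kept. It had 0.249 FPKM in the input and 2.71 FPKM in the Mettl3 RIP, a ratio of 10.9 (4.40 to 35.7), and 0.252 and 2.40 FPKM in the Zfp217 table, a ratio of 9.54 (3.79 to 31.5). Its exons hold the snoRNA genes Gm23187, Gm23650 and Snord57, whose part in these values was not tested. Only 5.97% of the bases of the Rrp1b transcript and 9.26% of those of this Nop56 transcript are their own. How reads were divided among transcripts of 1 gene therefore touches these ratios, and its part was not tested.

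A transcript of Nop56 marked for nonsense-mediated decay, ENSMUST00000150401, had a ratio of 3.74 (1.01 to 21.4) for Zfp217, from 0.604 to 2.26 FPKM. No base of this transcript is its own. A retained-intron transcript of Dkc1, ENSMUST00000135389, had a ratio of 2.57 (1.04 to 7.62) for Mettl3 and 2.48 (0.948 to 7.56) for Zfp217. Both lower bounds that pass 1 here do so narrowly.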

How the results depend on the processing

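The counts of members at least 2-fold higher depended on the filter, and the share over all transcripts moved with it; that share is given after each count. For Mettl3, 5 of 12 (48.4% of all) became 9 of 16 (53.3%) with no filter, 3 of 10 (38.02%) with an input of at least 0.01 FPKM, 1 of 8 (34.5%) with both values at least 1 FPKM and 11 of 24 (51.1%) with rows of every class. For Zfp217, 8 of 16 (45.2%) became 13 of 21 (53.3%), 5 of 13 (27.8%), 3 of 10 (20.7%) and 20 of 32 (49.1%) under the same settings. For both RIPs together, 3 of 7 (36.4%) became 7 of 11 (44.6%) with no filter, 1 of 4 (13.9%) with both values at least 1 FPKM and 7 of 13 (38.5%) with every class. A pseudocount of 0.1 FPKM, a 3-fold rule, FPKM summed per gene and leaving out the Nhp2l1 processed transcript kept each count within 1.5 times. The share over all moved with the first 2 of these. For Mettl3 they gave 6 of 12 (66.5%) and 4 of 12 (25.9%), and for Zfp217 10 of 16 (60.9%) and 6 of 16 (29.8%). For both RIPs they gave 4 of 7 (53.9%) and 2 of 7 (23.5%). Summed per gene, the counts were 4 of 11 (51.6%), 7 of 14 (48.4%) and 3 of 8 (40.5%). The median difference between the antibodies stayed above 0 in all alternatives run, from 0.04 to 0.43, beside 0.07 to 0.13 over all transcripts. It was below that of all with rows of every class (0.04 against 0.07) and without the Nhp2l1 processed transcript (0.04 against 0.08). With every class of row, the listed share was 39.1% of members and 27.9% of all genes for Mettl3, and 40.6% and 23.9% for Zfp217. That alternative, the one without the Nhp2l1 processed transcript and, for the median difference, a mean of at least 1 FPKM in both tables (0.40) were chosen after seeing the data. No paired analysis was possible because each group had 1 library. Depth limits most the transcripts with few input reads, such as Nhp2l1 and Nol12.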

Other observations

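Other rows of member genes, classed as other than protein-coding, numbered 20 from 15 genes in the Mettl3 table and 22 from 13 genes in the Zfp217 table, and 10 and 9 of them were retained introns. Of 12 kept rows for Mettl3, 6 were at least 2-fold higher, and of 16 for Zfp217, 12 were, beside 58.7% and 58.0% of all kept rows of these classes. Npm1, which encodes the nucleolar chaperone nucleophosmin, had such rows only. Of these, ENSMUST00000141881 had 32.7 FPKM in the input and 55.7 FPKM in the Mettl3 RIP, a ratio of 1.70 (1.38 to 2.11), with 7.12% of its stretches shared with other genes. A row of Utp14a, a processome protein, had 4.58 and 8.47 FPKM, a ratio of 1.85 (1.34 to 2.59). Nol9, a kinase that acts on ribosomal RNA precursors, had a row near 0 in the input, at 2.52 FPKM in the Mettl3 RIP and 3.14 FPKM in the Zfp217 RIP.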
